A study of Mus musculus with 66 samples.

Results

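Of 21911 protein-coding genes annotated on the mouse genome, 8 glutamate receptor genes were examined here for islands of the histone marks H3K9me3 and H3K36me3 in the prefrontal cortex (PFC). The genes were Gria4, Grik1, Grik2, Grin3a, Grm5, Grm3, Grm7 and Grm8, and each was taken as its GRCm38 gene body (GENCODE vM21) plus 100 kb on either side. An island is an interval that the peak caller SICER listed in a library because chromatin immunoprecipitation (ChIP) reads clustered there. These genes were proposed from H3K9me3 differences between ethanol and water in the same libraries, so their H3K9me3 differences are given as a description, and nothing is read from them.

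Adolescent male and female DBA/2J mice, an inbred strain, received water or binge ethanol (4 g/kg, as a 25% w/v solution) by gavage on an intermittent schedule from postnatal day (PND) 29 to PND 42. PFC tissue was taken 24 h later, and tissue of 3 mice of 1 sex and treatment was pooled. Each sex had 6 ethanol and 5 water pools, and every pool gave an H3K9me3, an H3K36me3 and an input library, of which the 44 precipitated libraries have island lists. All groups shared the strain and the gavage schedule. The tissue held all PFC cell types, so a change in cell number cannot be told apart from a change in a mark per cell.

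Glutamate is the main excitatory transmitter of the PFC. Ionotropic receptors are ion channels that open on binding it: Gria4 encodes an AMPA receptor subunit that carries fast excitatory current, Grik1 and Grik2 encode kainate receptor subunits that adjust transmission on either side of the synapse, and Grin3a encodes an NMDA receptor subunit that lowers the calcium flow of the channel and is prominent in young brain. Metabotropic receptors act through G proteins: Grm5 raises intracellular calcium in the postsynaptic cell, Grm3 lowers cyclic AMP in neurons and astrocytes, and Grm7 and Grm8 restrain transmitter release from the presynaptic terminal. H3K9me3 marks heterochromatin, including silenced repeats, and H3K36me3 is laid down along the bodies of transcribed genes as RNA polymerase elongates.

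The ionotropic receptor genes lie in GRCm38 as follows: Gria4 (ENSMUSG00000025892.16) at chr9:4417896-4796234 on the minus strand, Grik1 (ENSMUSG00000022935.16) at chr16:87895900-88290265 on the minus strand, Grik2 (ENSMUSG00000056073.16) at chr10:49094833-49788766 on the minus strand and Grin3a (ENSMUSG00000039579.15) at chr4:49661611-49845744 on the minus strand. The metabotropic receptor genes are Grm5 (ENSMUSG00000049583.15) at chr7:87584168-88134907 on the plus strand, Grm3 (ENSMUSG00000003974.6) at chr5:9485541-9725170 on the minus strand, Grm7 (ENSMUSG00000056755.13) at chr6:110645581-111567230 on the plus strand and Grm8 (ENSMUSG00000024211.15) at chr6:27275119-28135178 on the minus strand.

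The same stretch of DNA recurred under the H3K36me3 islands of all 8 receptor genes. It is printed here to show what the listed positions at these genes shared. How often it occurs under islands elsewhere in the genome was not tested. A stretch of 120 bases was taken from the H3K36me3 region upstream of Grik2 that was listed in all 22 libraries, and its best match without gaps was found in the corresponding region of each other gene. Letters are from the GRCm38.p6 assembly (strain C57BL/6J, from RefSeq), on its plus strand, and capitals mark bases that differ from the Grik2 copy.
Grik2: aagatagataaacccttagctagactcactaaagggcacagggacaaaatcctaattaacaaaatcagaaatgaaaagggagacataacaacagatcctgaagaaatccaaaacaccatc
Grin3a: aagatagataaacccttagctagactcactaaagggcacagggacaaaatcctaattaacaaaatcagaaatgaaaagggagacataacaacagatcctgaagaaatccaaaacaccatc
Grm5: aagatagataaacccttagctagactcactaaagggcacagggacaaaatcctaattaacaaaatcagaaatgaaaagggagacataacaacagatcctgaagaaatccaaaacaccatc
Grm7: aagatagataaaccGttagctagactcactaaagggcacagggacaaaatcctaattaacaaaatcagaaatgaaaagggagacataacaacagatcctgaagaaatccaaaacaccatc
Grm8: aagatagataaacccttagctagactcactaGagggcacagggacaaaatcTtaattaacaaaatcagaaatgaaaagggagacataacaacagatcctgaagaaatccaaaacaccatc
Grik1: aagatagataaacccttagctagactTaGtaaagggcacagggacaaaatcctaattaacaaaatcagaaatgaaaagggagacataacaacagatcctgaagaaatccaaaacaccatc
Gria4: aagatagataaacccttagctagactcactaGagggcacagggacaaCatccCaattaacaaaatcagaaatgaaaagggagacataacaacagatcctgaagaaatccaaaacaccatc
Grm3: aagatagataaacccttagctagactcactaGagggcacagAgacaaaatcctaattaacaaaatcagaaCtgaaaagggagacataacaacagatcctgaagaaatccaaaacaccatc

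The Grik2 copy lies at chr10:49838761-49838880, and the copies at Grin3a (chr4:49735066-49735185, intron) and Grm5 (chr7:87906460-87906579, intron) were identical to it over all 120 bases. The Grm7 copy (chr6:111548983-111549102, intron) differed at 1 base. The Grm8 copy (chr6:28060409-28060528, intron) and the Grik1 copy (chr16:88065110-88065229, intron) each differed at 2 bases. The Gria4 copy (chr9:4403626-4403745, downstream of the gene) and the Grm3 copy (chr5:9817415-9817534, upstream) each differed at 3 bases, an identity of 97.5%. The stretch was chosen by a search for the best shared match, so its identity is a description of these positions and not an average over the regions.

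For each mark, a region was defined as positions under a listed island in at least 11 of the 22 libraries. The 8 genes with their flanks held 114 H3K9me3 regions, of which 66 were in gene bodies, 26 upstream and 22 downstream, and 68 H3K36me3 regions, of which 40 were in gene bodies, 11 upstream and 17 downstream. None of these regions overlapped an annotated exon of the 8 genes, and no library had an island of either mark over the gene start of any of them (250 bases before to 50 after). The nearest H3K9me3 region to a gene start was 12.5 kb away, at Grm8. Median region length was 3000 bp for both marks. Of the H3K9me3 regions, 49 were listed in all 22 libraries, against 17 of the H3K36me3 regions.

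**Figure D1:**
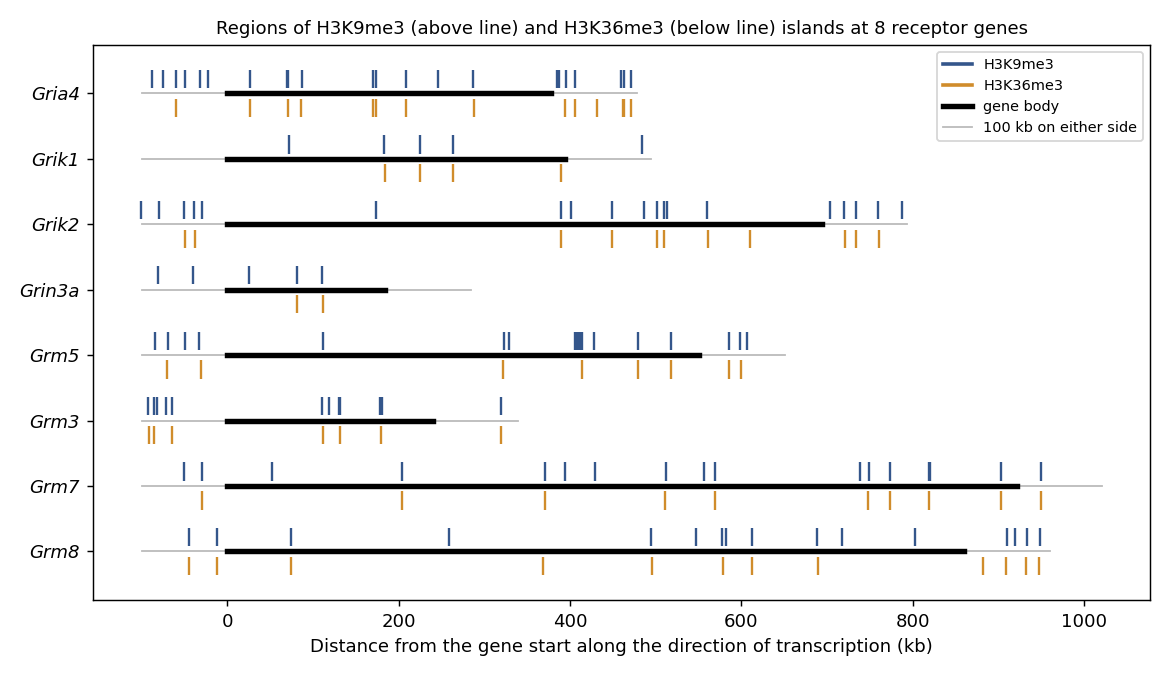
Regions of H3K9me3 (blue, above each line) and H3K36me3 (orange, below) at the 8 receptor genes, by distance from the gene start in kb along the direction of transcription; thick black lines are gene bodies and thin grey lines the 100 kb on either side. Most of the 68 H3K36me3 ticks stand under an H3K9me3 tick, and no tick stands at a gene start.

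Regions of the 2 marks lay largely at the same positions. An H3K9me3 region overlapped 63 of the 68 H3K36me3 regions at these genes (92.65%), against 80.5% of all 31085 H3K36me3 regions of the genome. In the other direction, 66 of 114 H3K9me3 regions (57.9%) overlapped an H3K36me3 region, against 45.4% of all 52559. All 10 H3K36me3 regions at Grm7, all 8 at Grm5, all 7 at Grm3 and both at Grin3a were of this kind, as were 13 of 14 at Gria4, 10 of 11 at Grik2, 10 of 12 at Grm8 and 3 of 4 at Grik1. These shares were not tested, and since the genes were proposed from H3K9me3, nothing is read from their distance to the genome.

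The regions at the receptor genes consisted almost entirely of bases that the assembly shows in lower case as repeats (soft-masked). The median region was 98.8% soft-masked for H3K9me3 and 99.95% for H3K36me3, whereas the gene bodies as a whole were 25.3% (Grik1) to 39.6% (Gria4) soft-masked and the genome 36.4%. This composition was shared with other listed regions of the genome, whose medians were 97.2% and 98.3%. Among regions of the genome built only from islands within the caller's false discovery rate of 0.01, the medians were 98.35% for H3K9me3 and 75.82% for H3K36me3. Over 90% of the bases were soft-masked in 93 of 114 H3K9me3 and 56 of 68 H3K36me3 regions. Aligned to each other (at least 80% identity over at least 200 bases), 101 of 114 H3K9me3 regions matched regions at another of the 8 genes over at least 50% of their length, and 60 of 68 H3K36me3 regions did so. Matches to all 7 other genes were found for 88 and 58 regions. Regions outside the 8 genes were not aligned, so these counts have no background. Reading frames of at least 1000 codons without a stop were present in the sequence of 18 H3K9me3 and 16 H3K36me3 regions read with 3 kb on either side, and the longest was 1300 codons at each gene except Grm3, where it was 698. The annotation used here names no repeat families, so these copies were not assigned to one. The animals were DBA/2J while the assembly is C57BL/6J, and which copies the DBA/2J genome carries was not tested.

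Listed islands at these genes made up 0.21% of all islands of each mark, 2604 for H3K9me3 and 1700 for H3K36me3. Their median fold over input was 1.378 for H3K9me3 and 1.202 for H3K36me3, against 1.53 and 1.28 over all islands. The fold is the ratio of ChIP to input reads scaled by 1 constant per library. At the caller's false discovery rate (FDR) of 0.01, 62.6% of the H3K9me3 islands at these genes remained, against 75.8% of all, and 30.1% of the H3K36me3 islands remained, against 40.9% of all. Islands that did not reach this FDR were therefore the majority of the H3K36me3 islands at the receptor genes. Over the whole series, listed islands held 5726429 to 14223555 ChIP reads per H3K9me3 library and 1700043 to 4788006 per H3K36me3 library, and the share of islands above the FDR of 0.01 ranged from 11.9 to 69.0% and from 26.8 to 92.2%. Male ethanol replicate 4 had the most H3K9me3 reads and the fewest H3K36me3 reads.

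One region per gene and mark was described in every library, the one listed in the most libraries (the longest where several tied), and each was listed in all 22. Beginning with the ionotropic receptors, the H3K9me3 region of Gria4 (chr9:4395401-4407200, 11800 bp, downstream) had the highest level, a median fold over input of 1.61 and a range of 1.43 to 1.86 over the libraries. The region of Grik1 (chr16:88062801-88068000, intron) had a median fold of 1.44 (0.981 to 1.78). Grik2 (chr10:49865401-49871800, upstream) had the lowest, 1.296 (0.945 to 1.68), and no H3K36me3 region overlapped it. The Grin3a region (chr4:49732801-49736600, intron) had a median of 1.37 (0.954 to 1.72). The ranges of the 4 genes overlapped, and of all 8 genes Gria4 had the highest lowest value.

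Among the metabotropic receptors, the H3K9me3 region of Grm8 (chr6:27222401-27228200, downstream) had a median fold of 1.47 (1.09 to 1.79) and that of Grm3 (chr5:9815001-9821400, upstream) 1.45 (1.14 to 1.72). Grm7 (chr6:111154601-111160400, intron) followed with 1.38 (1.11 to 1.72) and Grm5 (chr7:87548401-87554800, upstream) with 1.32 (1.15 to 1.62). All of these were above 1 in every library, and neighbours in the order overlapped. Of the 176 H3K9me3 values at the 8 regions, 4 were below 1, that is, below input.

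H3K36me3 levels at the described regions were lower and less often above input. Grm5 had the highest median fold, 1.3 (0.967 to 2.49), in an intron at chr7:87904201-87907600. Grm7 (chr6:111546801-111549800, intron) had 1.203 (0.948 to 1.93), Grik2 (chr10:49836401-49840400, upstream) 1.18 (0.860 to 1.65) and Gria4 (chr9:4399001-4404800, downstream) 1.15 (0.953 to 1.91). For Grik1 (chr16:88062801-88067200, intron) the median was 1.14, for Grm3 (chr5:9815201-9819000, upstream) 1.12 and for Grm8 (chr6:28058001-28062800, intron) 1.1. Grin3a was lowest, with 0.978 (0.593 to 1.43) at an intron region (chr4:49732801-49735800), and 12 of its 22 values were below 1. The bases of this region lie entirely inside the described H3K9me3 region of that gene, as was also so at Gria4, Grm3 and Grik1. In all, 33 of the 176 H3K36me3 values were below 1. Behind each value stood a median of 85.5 to 128.5 H3K36me3 reads, compared with 161 to 428.5 reads for H3K9me3.

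**Figure D2:**
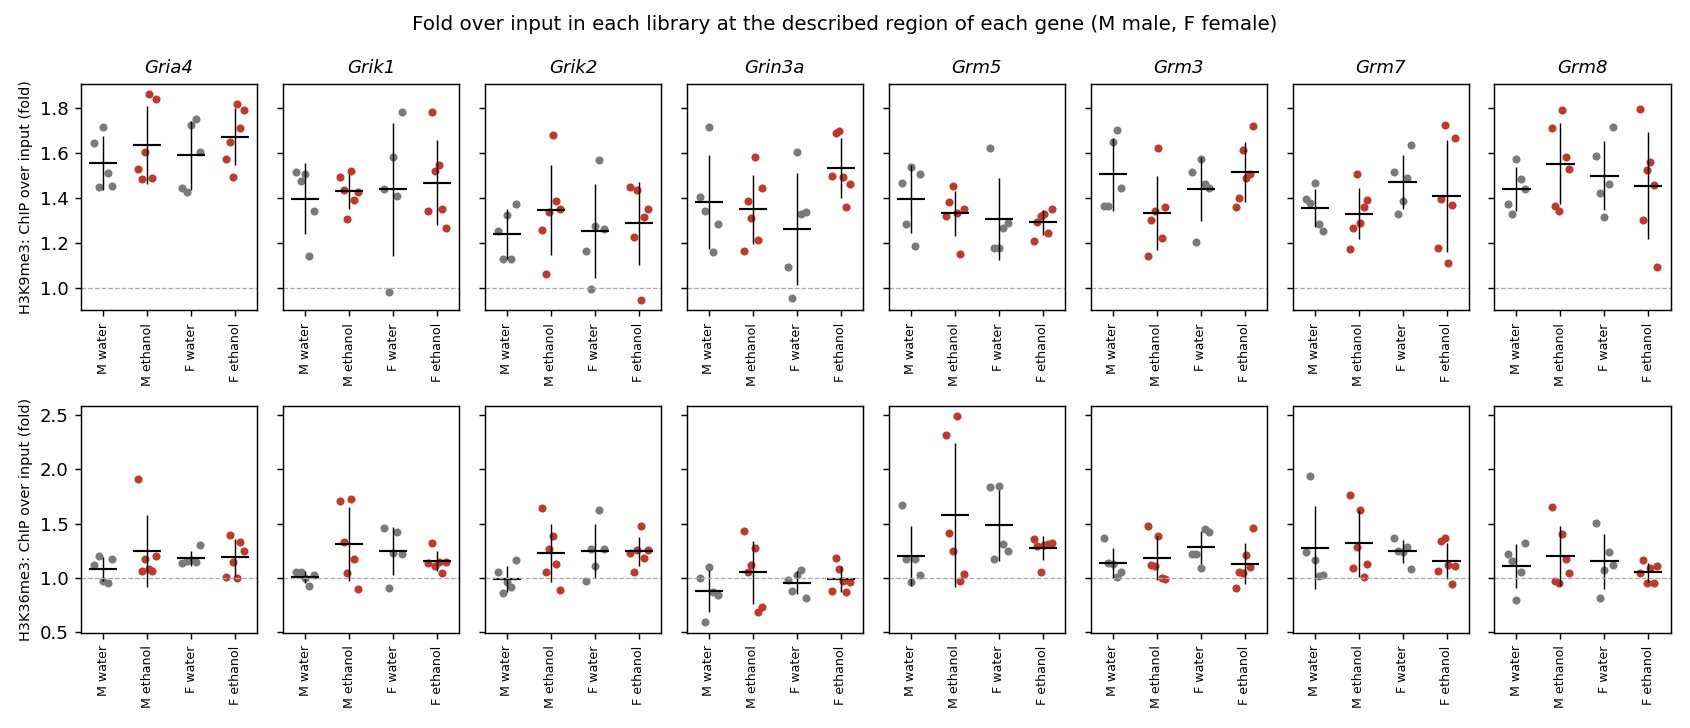
ChIP over input (fold, linear scale) in each library at the described region of each gene, H3K9me3 above and H3K36me3 below; points are pools (grey water, red ethanol), horizontal bars group means and vertical bars SD, and the dashed line is equality with input. Ethanol and water points overlap in both sexes at every gene, and Grin3a H3K36me3 sits around the dashed line.

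Adolescent binge ethanol was compared with water within each sex. For H3K9me3, the contrast used to propose the genes, 61 regions at these genes had islands in all 11 male libraries and 53 in all 11 female libraries, so that counts could be fitted. Log2 differences (ethanol over water) ran from -0.44 to 0.27 in males, with 27 of 61 above 0, and from -0.40 to 0.41 in females, with 22 of 53 above 0. The medians were -0.02 in both sexes, beside medians of -0.0004 and 0.004 over all regions. At an island FDR of 0.01 the female values turned, with 34 of 45 regions above 0 and a median of 0.27, beside 0.24 over all regions. At the described regions, the log2 difference in males was -0.05 for Gria4 (SE 0.07), -0.05 for Grik1 (SE 0.07), -0.09 for Grik2 (SE 0.25), -0.14 for Grin3a (SE 0.12), -0.03 for Grm5 (SE 0.07), 0.07 for Grm3 (SE 0.07), -0.02 for Grm7 (SE 0.07) and -0.01 for Grm8 (SE 0.07). In females it lay between -0.20 (Grik2, SE 0.26) and 0.11 (Grm7, SE 0.15). Listed only for completeness, since this contrast chose the genes, 1 of 61 male regions lay past an unadjusted p of 0.05 in edgeR (the threshold the study used), against a background of 2.92% of all 27957 regions, and 1 of 53 female regions, against 3.99% of 27241. These were regions upstream of Grm8 in males (chr6:28178801-28182000, log2 difference 0.27, where the input reads differed by 0.0047) and upstream of Grik2 in females (chr10:49816601-49819400, log2 difference -0.40, where the input reads differed by -0.42), named after their values were seen.

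For H3K36me3, 22 regions could be tested in each sex. Earlier results of both marks were known when the genes were proposed, so the H3K36me3 tests of ethanol are not independent of that choice. In males, 3 of 22 passed the unadjusted threshold, against a background of 5.71% of all 7532 regions, and none passed after Benjamini-Hochberg adjustment (0 of 7532 in the edgeR quasi-likelihood test, with 430 unadjusted). DESeq2 counted 3 of 22 unadjusted, against 7.1% of all regions, and 3 of 7532 adjusted, none of them at these genes. In females, 0 of 22 passed, against 3.6% of 9018 (325 regions at the unadjusted threshold, 308 or 3.42% by DESeq2, which also counted 0 at these genes). The median log2 difference at the genes was 0.04 in males and 0.01 in females. The 3 male regions lie outside the gene bodies, downstream of Grm8 and Gria4 and upstream of Grm3.

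The Grm8 region (chr6:27200601-27204600) is 4000 bp long and 100% soft-masked and lies under an H3K9me3 region over all its bases. Its H3K36me3 level in RPM (reads per 1000000 reads in the listed islands of the library) was 20.3, 26.5, 15.4, 24.1 and 26.2 in the 5 male water pools. In the male ethanol pools it ran from 29.0 to 46.0, with a median of 30.5. The male groups did not overlap, and in females they did, at 20.1 to 37.0 with water and 19.2 to 34.4 with ethanol. The log2 difference was 0.47 in males (SE 0.15, unadjusted p = 0.00547, adjusted p = 0.845 by edgeR) and 0.03 in females (SE 0.14). Input reads at this region moved with the treatment as well. They were 57, 85, 58, 87 and 90 in the male water pools and 86 to 117 (median 106) with ethanol, a log2 difference of 0.49. Divided by input, the region differed by -0.01 on the log2 scale (limma, unadjusted p = 0.922), and its fold over input was 1.198 ± 0.23 (SD, n = 5) with water and 1.282 ± 0.23 (SD, n = 6) with ethanol.

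At the Grm3 region (chr5:9815201-9819000), H3K36me3 RPM were 26.9, 20.5, 27.8, 21.7 and 28.8 in male water pools and 26.0 to 40.5 (median 33.9) in male ethanol pools, so that the groups overlapped. The log2 difference was 0.28 (SE 0.13, unadjusted p = 0.0374, adjusted p = 0.845 by edgeR), the input difference was 0.35, and division by input gave -0.07 (limma). The fold over input was 1.138 ± 0.137 with water (SD, n = 5) and 1.181 ± 0.203 with ethanol (SD, n = 6), so that the direction after allowing for input differed between these measures. In females the difference was -0.19 (SE 0.13). At the Gria4 region (chr9:4387401-4393000), male water pools had 42.1, 45.7, 51.3, 52.1 and 41.8 RPM and male ethanol pools 28.404 to 49.999 (median 41.4). The log2 difference was -0.29 (SE 0.13, unadjusted p = 0.0362, adjusted p = 0.845 by edgeR), with -0.16 in the input reads and -0.13 after division by input, where it no longer passed. The count of 3 fell to 1 without male water replicate 4 or male ethanol replicate 1, and the Grm8 region still passed when each male library was left out in turn. The Grm8 and Gria4 regions were named after their values were seen.

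**Figure D3:**
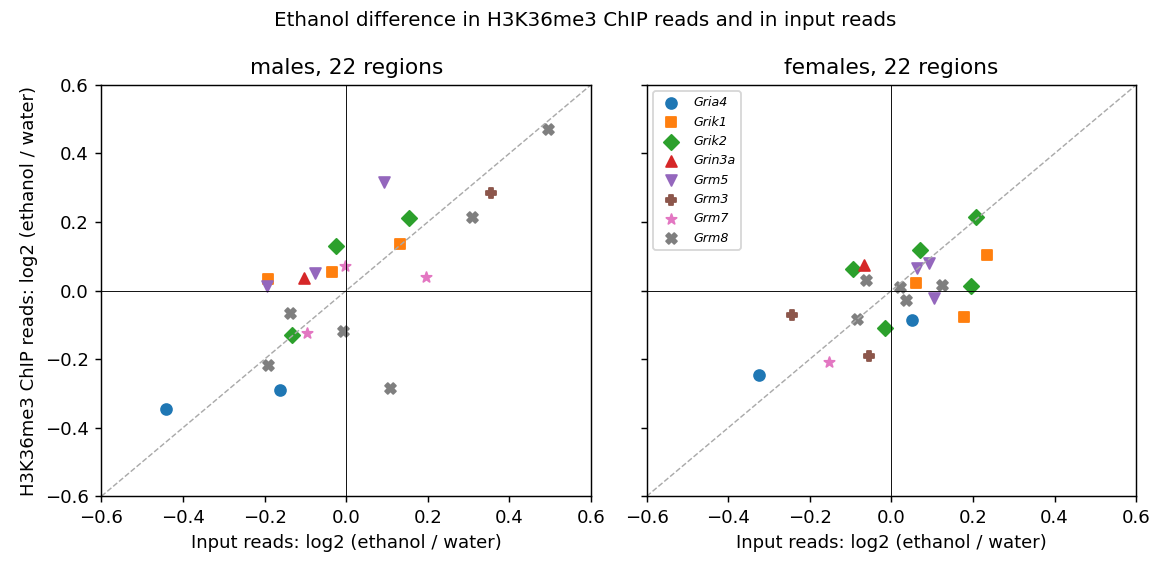
Log2 difference (ethanol over water) in H3K36me3 ChIP reads against that in input reads at the 22 tested regions of the 8 genes, males left and females right; each point is 1 region, marked by gene, and the dashed line is equality. Points of both sexes spread along the dashed line, with the Grm8 region at the upper right in males at 0.47 and 0.49.

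Across the tested regions the difference in ChIP reads was correlated with the difference in input reads. Pearson's r was 0.76 over 22 H3K36me3 regions in males and 0.63 over 22 in females, and 0.66 over 61 and 0.83 over 53 H3K9me3 regions. Both differences had the same sign at 14 of 22 H3K36me3 regions in males and 15 of 22 in females. For H3K9me3 this was so at 50 of 61 and 41 of 53. These are descriptions: the points share libraries, and ChIP and input reads of a region were counted over the same islands, whose lengths set both. How much of the ChIP difference is due to island length or to copy content was not tested.

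Islands were also compared by presence. At none of the 114 H3K9me3 or 68 H3K36me3 regions did every pool of 1 treatment have an island and no pool of the other, in either sex. Such separation was found in 0.00571% (males) and 0.0628% (females) of all H3K9me3 regions, and in 0.0901% and 0.00322% of all H3K36me3 regions. The widest gap at these genes was an H3K36me3 region of Gria4 (chr9:4508401-4508800), listed in 1 of 6 male ethanol and 5 of 5 male water pools, a gap of 83.3 percentage points. In females the widest gap of each mark was 66.7 points. For H3K9me3 it was at a region in the body of Grik2 (chr10:49387601-49388400, 4 of 6 ethanol and 0 of 5 water pools). For H3K36me3 it was at a region of Gria4 (chr9:4586001-4588400, 2 of 6 and 5 of 5).

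H3K36me3 was then summed over whole gene bodies, since the mark follows transcription across a gene. In males, 2 of 8 gene bodies passed the unadjusted threshold, both with higher levels in ethanol pools, against a background of 2.42% of 5777 genes. None passed adjustment (edgeR counted 0 of 5777 adjusted and 140 unadjusted; DESeq2 counted 22 adjusted and 215, or 3.72%, unadjusted, with 2 unadjusted and 0 adjusted at these genes). The median log2 difference of all tested genes was -0.61, against 0.32 for the 8 genes. With no filter on low counts, ChIP reads had medians of -0.75 (11072 genes) and 0.42, and input reads -0.71 (11067 genes) and 0.29. After division by input the medians were -0.02 (5777 genes) and 0.13. Grm5, which signals through calcium, had 124, 155, 128, 89.6 and 106 RPM in the male water pools. Male ethanol pools had 149.5 to 204 (median 169). The groups overlapped where 1 water pool stood above 1 ethanol pool, and the log2 difference was 0.54 (SE 0.17, unadjusted p = 0.00762, adjusted p = 0.969 by edgeR). Input reads over the same islands differed by 0.40, and after division by input the log2 difference was 0.23 and no longer passed. The count of 2 genes became 4 without male ethanol replicate 5, where the share of all genes also rose, to 8.98% (456 of 5080, of which 172 passed adjustment), and was 2 or 3 when any other male library was left out.

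Grin3a, the NMDA receptor subunit, had 40.1, 20.5, 46.6, 62.8 and 50.4 RPM in male water pools and 55.9 to 87.5 (median 70.4) in male ethanol pools. The log2 difference was 0.73 (SE 0.32, unadjusted p = 0.0395, adjusted p = 0.969 by edgeR), and it no longer passed without male water replicate 2 or male ethanol replicate 2. The input reads differed by 0.58, and after division by input the log2 difference was 0.30 and no longer passed. The percent of the Grin3a body covered by islands was 2.45 ± 1.17 (SD, n = 5) with water and 4.69 ± 1.45 (SD, n = 6) with ethanol, and for Grm5 it was 2.72 ± 0.65 and 4.01 ± 0.65. The remaining male differences were 0.42 for Grik2 (SE 0.21), 0.34 for Grm7 (SE 0.18), 0.30 for Grm8 (SE 0.19), 0.13 for Grik1 (SE 0.17), -0.02 for Gria4 (SE 0.20) and -0.06 for Grm3 (SE 0.42), none of which passed.

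In females, 0 of 8 gene bodies passed the unadjusted threshold, against a background of 0.519% of 6546 genes (34 by edgeR and 70, or 1.07%, by DESeq2, which also counted 0 of 8). Values ranged from -0.38 for Grm3 (SE 0.29) to 0.38 for Grin3a (SE 0.31), with 4 of 8 above 0 and a median of -0.04. After division by input 8 of 8 were above 0, with a median of 0.08, beside 0.06 over all genes. At an island FDR of 0.01 it was 1 of 8, with a median of -0.82, beside -0.24 over all genes. Grm5 had 122.6 ± 8.9 RPM with water (SD, n = 5) and 117.3 ± 29.7 with ethanol (SD, n = 6), and the fitted log2 difference, which uses TMM-scaled library sizes in place of RPM, was 0.02 (SE 0.21). A test of the difference between the sexes' effects for Grm5 gave -0.62 (female minus male, SE 0.29, unadjusted p = 0.0452, adjusted p = 0.619 by edgeR), which did not pass adjustment, against 8.02% of all genes at the unadjusted threshold. For Grik2 the same test gave -0.63 (SE 0.31) and did not pass.

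**Figure D4:**
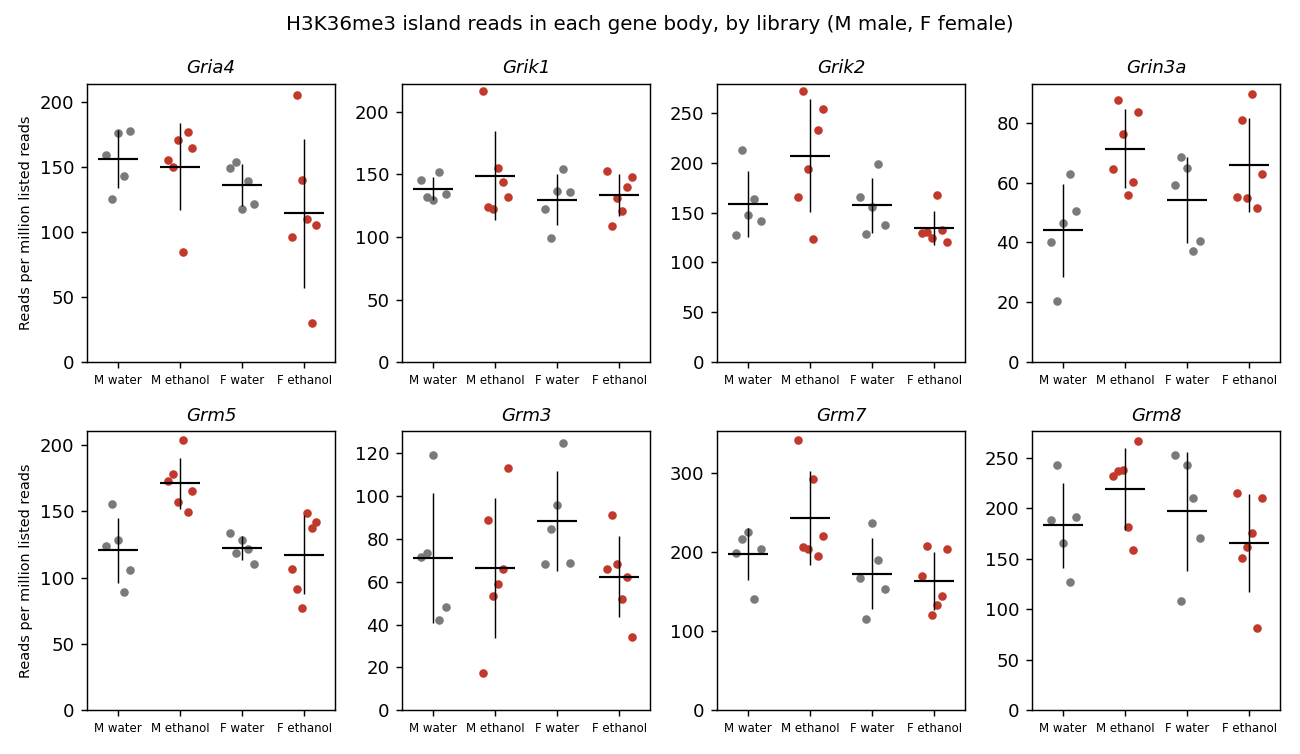
H3K36me3 island reads in each gene body in RPM, by library and gene; points are pools (grey water, red ethanol), horizontal bars group means and vertical bars SD. Grm5 and Grin3a are higher in male ethanol than male water pools, 171 against 121 and 71.3 against 44.1 on average, and the female groups overlap.

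Sex itself was compared over all 22 pools with treatment in the model. Of the 8 genes, 0 passed adjustment, against a background of 1.85% of 7335 genes (136 genes by edgeR and 175 by DESeq2), and 1 passed the unadjusted threshold, against 3.11%. This was Grm7, a presynaptic receptor, with means of 167.6 RPM in females and 222.5 in males, a log2 difference of -0.36 (SE 0.16, unadjusted p = 0.0369 by edgeR). After division by input the Grm7 difference was -0.058, and 0 of 8 genes passed the unadjusted threshold there, against 4.12% of all genes, or at an island FDR of 0.01, against 1.76%. DESeq2 counted 2 of 8 genes at the unadjusted threshold, against 5.54% of all genes, and 0 adjusted. Grik2 had 144.6 in females and 184.8 in males (log2 difference -0.33, SE 0.16), and Grm5 had 119.7 and 148.3.

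Gene bodies were compared with their flanks within each library, as the percent of bases under listed islands. H3K9me3 covered a similar small share of all 8 bodies, with medians from 4.29% (Grik1) to 5.55% (Gria4), while the flanks ranged from 1.05% (Grik1) to 26.5% (Gria4). All 8 genes differed between body and flank after adjustment, against a background of 77.4% of 12715 genes (limma), which is near to what most genes showed. Of all these genes, 8343 passed the unadjusted threshold with lower coverage in the body and 1616 with higher. The 8 genes were proposed from H3K9me3, so their H3K9me3 values here are a description, and nothing is read from the test. Body minus flank coverage was below 0 at Gria4 (-20.6 percentage points, SE 0.84), Grik2 (-14.2, SE 0.33), Grm5 (-8.47, SE 0.45), Grm8 (-6.54, SE 0.26) and Grm3 (-4.38, SE 0.34). It was above 0 at Grik1 (3.20, SE 0.21), Grin3a (1.98, SE 0.35) and Grm7 (0.95, SE 0.24). With flanks of 50 kb, 3 of the 8 genes were above 0, and 2 of these passed. The Grm3 and Grm7 differences turned direction, to 4.63 and -0.48 points. Grin3a and Grm7 no longer passed.

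The H3K36me3 islands gave the same ranking of flanks at the extremes. Median body coverage ran from 2.58% (Grm8) to 5.13% (Gria4), and 7 of 8 genes differed from their flanks after adjustment, against a background of 69.2% of 14088 genes. The difference was below 0 at Grik2 (-5.87 points, SE 0.51), Gria4 (-5.73, SE 0.64), Grm8 (-5.21, SE 0.22), Grm5 (-3.16, SE 0.39) and Grm3 (-1.97, SE 0.45), above 0 at Grik1 (3.24, SE 0.24) and Grin3a (1.38, SE 0.52), and did not pass at Grm7 (0.33, SE 0.34). At an island FDR of 0.01, 5 of 8 genes passed (7354 of 14084 genes), without Grin3a and Grm5, and with flanks of 50 kb 6 of 8 passed (8957 of 14023). With flanks of 50 kb, Grm3 turned to 3.23 points, and the Grin3a and Grm7 values turned to -0.31 and -0.79. The flanks of Gria4, Grin3a, Grm3 and Grm5 contain other protein-coding genes, among them Kbtbd3 and Msantd4 beside Gria4 and Tyr beside Grm5.

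**Figure D5:**
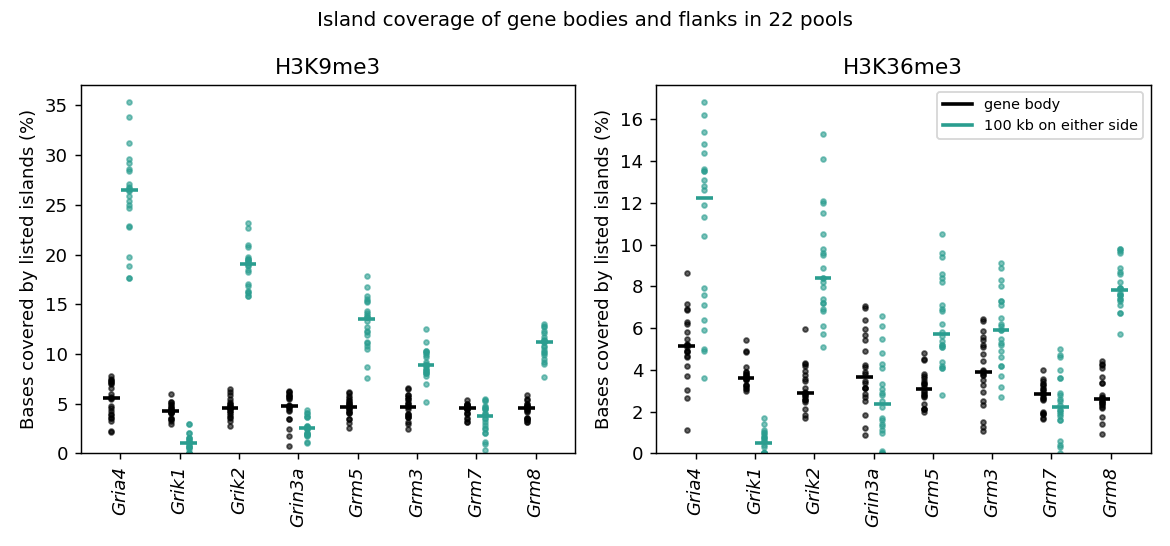
Percent of bases under listed islands in the gene body (black) and in the 100 kb on either side (green) for each gene, H3K9me3 left and H3K36me3 right; points are the 22 pools and bars medians. Median body coverage runs from 4.29 to 5.55% for H3K9me3 and from 2.58 to 5.13% for H3K36me3, and the flanks of Gria4 (26.5% for H3K9me3) and Grik1 (1.05%) stand at opposite ends.

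The other 18 glutamate receptor genes were counted for comparison. Their median H3K9me3 body coverage was above 0 in 9 of 18, and at most 4.2%. The 8 genes were proposed from H3K9me3, so no comparison with them is drawn. Over all protein-coding genes, 15.6% had a median above 0 for H3K9me3 and 25.3% for H3K36me3. For H3K36me3, 12 of the 18 had a median above 0, and the highest was 12.5%, at Grik5, a kainate receptor subunit with no H3K9me3 island in any library. None of the 12 tested in males, 13 in females and 14 between the sexes passed the unadjusted threshold in H3K36me3. Markers of PFC cell types were poorly covered in both marks: median H3K36me3 coverage was 0 in 2 of 5 neuronal, 4 of 4 astrocyte, 3 of 4 oligodendrocyte and 2 of 3 microglial markers, and in 7 of 8 genes of other tissues, so the island lists do not check the labelled tissue. Median H3K9me3 coverage was 0 for all of the PFC cell markers.

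The H3K36me3 reads over the 8 gene bodies, summed, varied between pools most like those of Mup6 (a major urinary protein gene, r = 0.73), Pde1c (a phosphodiesterase gene, r = 0.70) and Trim52 (r = 0.69), by Pearson's r on log2 of RPM plus 1 over 22 pools, among 12838 genes. The pools share depth and island calling, and no test was made.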

How the data were processed

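Per the labels and the study's methods, H3K9me3 reads were trimmed with cutadapt, aligned to GRCm38/mm10 with Bowtie2 2.4.1, filtered for blacklisted and multiply mapped reads, and islands were called per library with SICER against input (window 200 bp, gap 400 bp). For H3K36me3 the gap was 600 bp, and the submitters' processing notes name the same tools and build. The DNA of 8 technical replicate precipitations was combined per library. The deposited counts are whole ChIP and input reads per island, not normalized. The deposited p-value and FDR (a q-value) come from SICER, and the deposited fold is the ratio of ChIP to input reads times 1 constant per library; the lists are not filtered on FDR. No column of per-sample values was left out. Depth is known only inside listed islands.

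Groups came from sample titles; 2 titles misspell the treatment, which the characteristics give as ethanol. Samples of a group were separate pools of 3 mice. Regions needed at least 11 of 22 libraries and 200 bp. Testing in a sex required an island in each of its 11 libraries. Island reads were apportioned by overlapped length and rounded. ChIP counts were tested with edgeR 4.0.16 (TMM, filterByExpr, quasi-likelihood, treatment alone within each sex) in R 4.3.3, and body minus flank coverage with limma 3.58.1 in genes of at least 10 kb, and p-values were adjusted by Benjamini-Hochberg. As in the study, 0.05 unadjusted was the threshold. Alternatives were DESeq2 1.42.0, other size factors, no filter, an island FDR of 0.01 (8 of 11 libraries), division by input (limma, pseudocount of 1 read), a replicate block, 50 kb flanks and leaving out each library. Fits of input reads and of the interaction were added after seeing the data. Sequences were compared with blastn 2.17.0; Python 3.11.15, numpy 2.4.6, pandas 2.3.3 and matplotlib 3.10.9 were used. Scripts were tested on simulated data. All 8 genes are named; for each, the region listed in most libraries was described. The members and lists were chosen with earlier results of these data known.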

Additional observations from a re-analysis of the deposited data

Results flagged for a closer look

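Of 96 groups of pools checked, 9 held a pool that stood apart from the rest of its group by Dixon's criterion, which chance meets in about 1 group in 20. For fold over input these were Grm5 at its upstream H3K9me3 region in female water replicate 1 (1.62), and 5 H3K36me3 values: Grm7 in male water replicate 2 (1.93), Gria4 in male ethanol replicate 1 (1.91) and female water replicate 5 (1.3001), Grm5 in female ethanol replicate 3 (1.05) and Grik1 in female ethanol replicate 2 (1.32). For H3K36me3 RPM over gene bodies they were Grik2 in female ethanol replicate 4 (167.6), Gria4 in male ethanol replicate 4 (84.7) and Grik1 in male ethanol replicate 1 (216.5). Male ethanol replicate 4 also had the fewest listed H3K36me3 reads, 1700043, and without it the Gria4 log2 difference in male gene bodies was 0.094 in place of -0.022.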

How the results depend on the processing

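Depth inside islands limits these results: described H3K36me3 regions rested on a median of 85.5 to 128.5 ChIP reads per library. At an island FDR of 0.01 no H3K36me3 region of these genes was left to test in males and 1 in females. Division by input gave 1 H3K36me3 region in males (3 in the report), which was lower with ethanol and none of those 3, beside 6.89% of all regions; 5 and 3 H3K9me3 regions in males and females (1 and 1), beside 5.46% and 4.72%; and 0 male gene bodies (2), beside 11.5% of genes. The FDR of 0.01 gave 0 and 0 H3K9me3 regions and 0 male gene bodies, beside 0.580%, 0.167% and 0.671% of all regions or genes, so nothing is read from these zeros, and no filter gave 1 male gene body, with 1612 of 11072 genes at the unadjusted threshold by edgeR against 140 of 5777. The cause of these changes was not tested.

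Same-numbered pools did not deviate together (correlations of -0.12 to 0.0723), so the numbers do not pair the pools. With a replicate block the counts were 2 H3K36me3 regions in males and 1 in females, 0 and 2 H3K9me3 regions in males and females, beside 5.79%, 3.27%, 2.90% and 3.77% of all regions in that order, and 0 male gene bodies. The block fits held only replicate numbers that both treatments had, so ethanol replicate 6 of each sex was left out of them. Over the 8 gene bodies in males the median log2 difference was 0.33 with the block, against 0.32 without it and with all 11 male pools. Under the block, genes at the unadjusted threshold numbered 626 of 8898 in males and 123 of 9643 in females, and Grik1's female region was -0.0064, Grm7's female body -0.016 and Grm5's -0.030.

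Leaving out each library gave 1 to 3 H3K36me3 regions in males and 0 to 1 in females, 0 to 3 and 0 to 4 H3K9me3 regions in males and females, and 2 to 4 male gene bodies. The shares of all regions or genes past the threshold were 4.46 to 7.18%, 3.29 to 4.09%, 2.82 to 3.90%, 3.47 to 5.29% and 1.97 to 8.98% in the same order, and the 4 female H3K9me3 regions came with the 5.29%, without female water replicate 3. Directions turned within these ranges of log2 difference in H3K36me3 regions: in males Grin3a -0.025 to 0.086 and Grik1 -0.047 to 0.096; in females Grin3a -0.0042 to 0.12, Grm8 -0.026 to 0.13 (downstream) and -0.045 to 0.069 (intron), Grm5 -0.078 to 0.046 and Grik1 -0.035 to 0.081. For gene bodies the ranges were Grm3 -0.17 to 0.32 and Gria4 -0.098 to 0.12 in males, and Grm8 -0.35 to 0.043, Grm7 -0.13 to 0.20, Grm5 -0.059 to 0.15 and Gria4 -0.39 to 0.11 in females.

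The described H3K9me3 regions also turned when libraries were left out: in males Grik2 (-0.20 to 0.10), Grm8 (-0.048 to 0.029), Grm7 (-0.047 to 0.020) and Grm5 (-0.057 to 0.000355), and in females Grin3a (-0.089 to 0.025), Grm3 (-0.095 to 0.030), Grm7 (-0.040 to 0.19), Gria4 (-0.080 to 0.026) and Grik1 (-0.10 to 0.050).

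Other reversals were, after division by input, H3K36me3 regions of Grm3 (-0.067), Grm8 (-0.012, downstream) and Gria4 (0.066, chr9:4399001-4404800) in males and of Grm8 (-0.033, intron), the same Gria4 region (0.072) and Grik1 (-0.024) in females. Gene bodies turned for Gria4 in males (0.079), for Grm3 (0.14), Grm8 (0.054), Gria4 (0.085) and Grik2 (0.13) in females, and between the sexes for Grm3 (-0.0094) and Grm5 (0.032). Without a filter, male Grm3 was 0.058 and Gria4 0.079. At the FDR of 0.01, Gria4 was 0.61 in males, Grm7 -0.94, Grm5 -0.26 and Grik1 -0.82 in females, and Grm5 0.65 and Gria4 0.63 between the sexes, and the Grin3a H3K36me3 body minus flank was -0.43 points. Female Grm7 was -0.018 with DESeq2 and -0.019 with its size factors in edgeR, and Grm5 -0.026 and -0.026. With 50 kb flanks, H3K36me3 gave -0.31 (Grin3a), 3.23 (Grm3) and -0.79 (Grm7) points and H3K9me3 4.63 (Grm3) and -0.48 (Grm7). For H3K9me3, 3 of 8 genes were above 0 with these flanks, and 2 of these passed.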
